A study of Mus musculus with 21 samples.

Results

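The genes described here are 6 genes of the SREBP2 pathway, Srebf2, Insig1, Hmgcs1, Sqle, Idi1 and Fdft1, chosen by symbol from the 53738 symbols of the TPM table, and all 6 were found. Srebf2 encodes SREBP2, a transcription factor held in the membrane of the endoplasmic reticulum while sterols are plentiful and released to the nucleus when they are scarce, where it activates the genes for making and taking up cholesterol, its own gene among them. Insig1 encodes a membrane protein that keeps SREBP2 in the endoplasmic reticulum, and it is itself a target of SREBP2, so that its mRNA is often read as a sign of SREBP activity. The other genes encode enzymes of the route from acetyl-CoA to cholesterol. Hmgcs1 acts before mevalonate, Idi1 and Fdft1 act on the isoprenoid units that are joined to squalene, and Sqle oxidises squalene on the way to sterols.

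RNA was sequenced from whole quadriceps muscle of wildtype male C57/Bl6 mice aged 22 to 26 weeks, with 3 libraries in each of 7 groups. Sedentary mice did no exercise. Untrained mice ran once to exhaustion on a treadmill and were killed 0 h, 6 h or 72 h later, and trained mice had 12 weeks of voluntary wheel running before the same bout and the same time points. The trained mice had no group without the bout, which came at the end of the 12 weeks with no rest before it. Training and the bout therefore cannot be told apart in the comparisons of trained muscle with sedentary muscle. The question set by the design was how muscle responds to the bout and whether prior training alters that response.

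The values were TPM, which express each gene as a share of the transcripts of its library after correction for length. Read depth is lost in this unit and stays unknown. Errors therefore come from the spread of libraries within groups, pooled over the 7 groups and drawn towards a trend over all genes. Replicate 1 of untrained muscle at 0 h and replicate 1 of trained muscle at 0 h held identical values, which leaves 20 distinct libraries. Comparisons with a 0 h group were therefore also made with that library left out of both groups (n = 2 each). All 21 columns share 1 estimate of the spread, so the repeated library also entered the errors of the other comparisons. Myofibre markers, 6 genes, summed to between 49091 and 66594 TPM in every library. Nothing in the labels says how libraries were batched, and p-values measure the spread between these libraries.

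The promoter windows of 4 of the genes are printed because SREBP2 and its partner NF-Y are known to bind promoter sites of the kinds marked, and because these genes did not all move together below. Each window runs from 250 bases before to 50 bases after the start of the canonical transcript in GRCm39, 5′ to 3′ on the strand of the gene. Capitals mark the sterol response motifs TCACNCCAC and TCACCCCA and the box CCAAT, which is bound by NF-Y and reads ATTGG where it lies on the opposite strand.
Srebf2 (chr15:82031132-82031431, plus strand): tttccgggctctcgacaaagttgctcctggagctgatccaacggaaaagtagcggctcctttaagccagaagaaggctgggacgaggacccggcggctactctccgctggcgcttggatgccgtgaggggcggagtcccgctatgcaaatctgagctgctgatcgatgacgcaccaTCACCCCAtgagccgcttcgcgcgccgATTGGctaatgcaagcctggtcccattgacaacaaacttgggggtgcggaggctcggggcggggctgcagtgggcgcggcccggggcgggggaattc
Hmgcs1 (chr13:120151732-120152031, plus strand): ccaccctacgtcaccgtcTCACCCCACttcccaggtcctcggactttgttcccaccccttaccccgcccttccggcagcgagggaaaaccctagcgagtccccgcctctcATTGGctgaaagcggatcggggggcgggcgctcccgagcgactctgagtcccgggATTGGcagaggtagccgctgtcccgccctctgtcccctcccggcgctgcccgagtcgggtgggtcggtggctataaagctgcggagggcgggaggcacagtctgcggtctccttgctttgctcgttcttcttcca
Idi1 (chr13:8935669-8935968, plus strand): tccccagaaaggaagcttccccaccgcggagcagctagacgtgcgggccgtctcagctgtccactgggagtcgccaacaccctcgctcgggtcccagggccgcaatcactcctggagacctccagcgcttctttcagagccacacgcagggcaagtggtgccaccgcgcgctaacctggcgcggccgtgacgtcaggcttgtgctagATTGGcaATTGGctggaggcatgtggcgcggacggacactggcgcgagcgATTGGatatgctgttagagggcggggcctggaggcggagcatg
Fdft1 (chr14:63415393-63415692, minus strand): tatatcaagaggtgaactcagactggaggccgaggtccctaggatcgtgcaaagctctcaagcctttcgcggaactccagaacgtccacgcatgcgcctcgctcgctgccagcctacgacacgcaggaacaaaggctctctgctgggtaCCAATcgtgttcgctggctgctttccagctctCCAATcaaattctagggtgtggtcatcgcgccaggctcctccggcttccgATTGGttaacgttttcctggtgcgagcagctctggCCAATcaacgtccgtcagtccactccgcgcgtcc

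Both strands were searched. The motif TCACNCCAC was found in the Hmgcs1 window, at -232 to -224 from the start site, and in 1.34% of 21757 windows of protein-coding genes. The shorter TCACCCCA, added to the search after the sequences had been seen, lay at -74 to -67 in Srebf2, overlapped the longer motif in Hmgcs1, and was found in 1.41% of all windows. CCAAT was found in the windows of all 6 genes, from 1 match in Srebf2 and in Insig1 and 2 in Hmgcs1 and in Sqle to 3 in Idi1 and 4 in Fdft1, against 39.9% of all windows with at least 1 match. The GC box GGGCGG, the letters of an Sp1 site, was in 42.5% of all windows, with 3 matches in Srebf2, 4 in Insig1 and Hmgcs1, 5 in Sqle, 1 in Idi1 and 0 in Fdft1. The windows of Insig1 (chr5:28276077-28276376, plus strand) and Sqle (chr15:59186632-59186931, plus strand) held neither form of the sterol response motif. A match is a stretch of letters, and no binding was measured here.

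**Figure D1:**
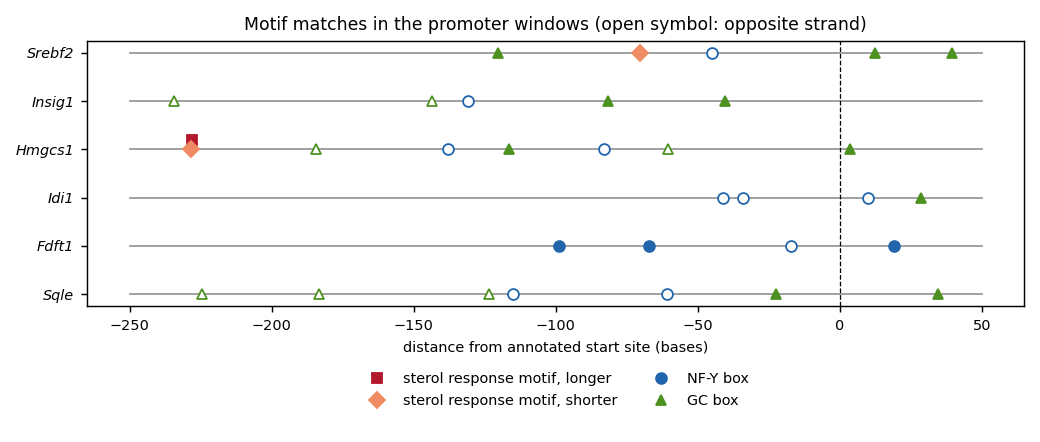
Motif matches in the promoter windows of the 6 genes, plotted as distance in bases from the annotated start site (dashed line), with filled symbols for the strand of the gene and open symbols for the opposite strand. CCAAT boxes (circles, named NF-Y box) occur in all 6 windows, and the longer sterol response motif (square) in Hmgcs1 alone of the 6.

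All 6 genes were transcribed at low to moderate levels in muscle. Over the 21 libraries, mean levels were 15.1 TPM for Fdft1, 10.8 TPM for Hmgcs1, 4.87 TPM for Insig1, 3.51 TPM for Srebf2, 2.25 TPM for Idi1 and 0.512 TPM for Sqle. The group means of a gene differed by at most 1.36-fold for Hmgcs1, 1.47-fold for Idi1, 1.58-fold for Srebf2, 1.62-fold for Fdft1, 1.91-fold for Insig1 and 2.30-fold for Sqle. A gene passed the test at an adjusted p below 0.05 (limma on log2(TPM + 0.5), Benjamini-Hochberg over the 11819 genes that averaged 1 TPM or more), and the share of all genes that passed is given beside each count. The share that also differed by at least 1.5-fold, the stricter rule, is given too. Beside members that rose or fell both shares count that direction, and elsewhere both directions. Sqle lay under the level filter and was not among the 5 genes tested, so its differences come from a fit of all 36627 genes with any value above 0.

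**Figure D2:**
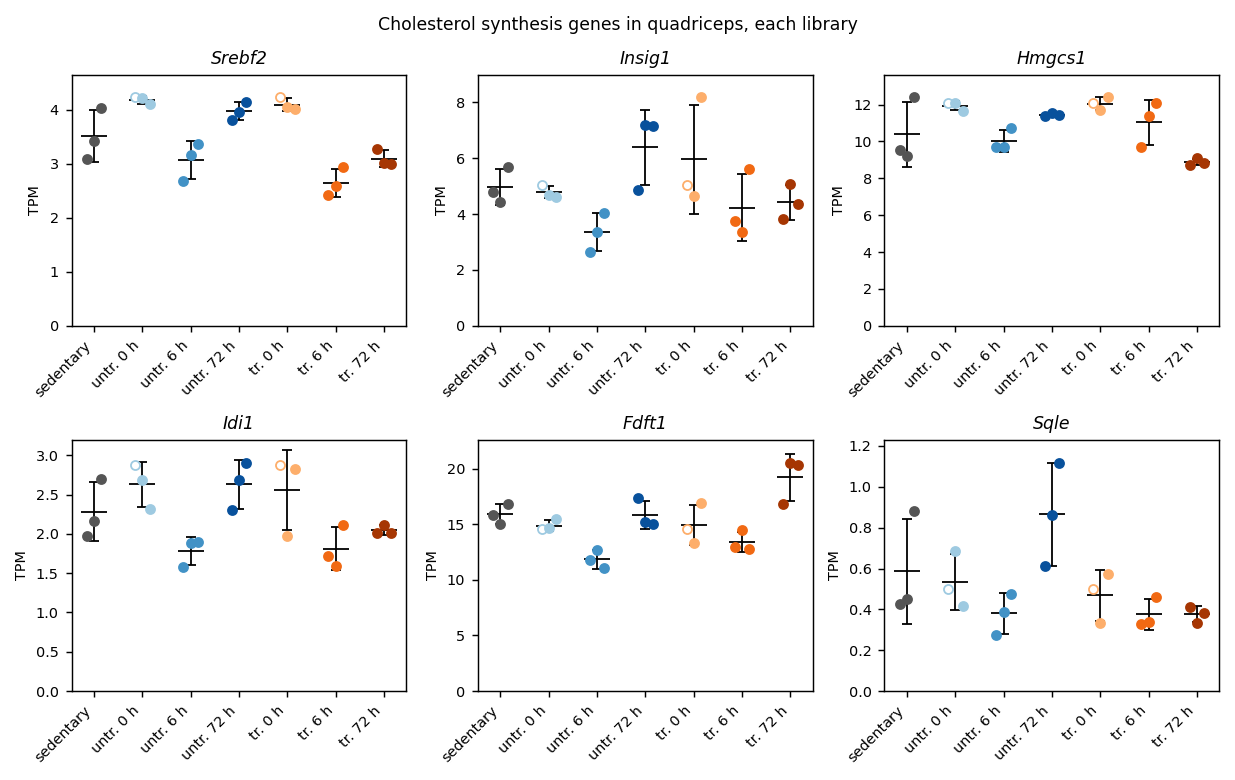
TPM of each gene in each library by group (untr., untrained; tr., trained), with the mean as a bar and the SD as whiskers (n = 3); open circles mark the library present in both 0 h groups. Srebf2 and Idi1 were lower at 6 h than at 0 h in both training states, and Fdft1 was highest in trained muscle at 72 h, with a mean of 19.2 TPM.

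Srebf2 was high directly after the bout and low 6 h later, in untrained and in trained muscle. Its levels were 3.09, 3.43 and 4.03 TPM in sedentary muscle and 4.23, 4.21 and 4.10 TPM in untrained muscle at 0 h. The untrained libraries then read 2.68, 3.17 and 3.38 TPM at 6 h and 3.81, 3.97 and 4.14 TPM at 72 h. The trained libraries read 4.23, 4.05 and 4.02 TPM (0 h), 2.41, 2.58 and 2.94 TPM (6 h) and 3.28, 3.02 and 3.00 TPM (72 h). In both states every 6 h library lay below every 0 h library, and in the order of the 7 group means all 6 pairs of neighbouring groups overlapped.

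From 0 h to 6 h, Srebf2 fell by 0.39 (SE 0.085, log2) in untrained muscle (adjusted p = 0.00674) and fell by 0.55 (SE 0.085) in trained muscle (adjusted p = 0.000358). These were the 2 falls that kept an adjusted p below 0.05 without the shared library (0.0333 and 0.00372) and with any library left out (highest adjusted p 0.0320 and 0.00284). The 2 falls differed by -0.16, trained minus untrained (SE 0.12, adjusted p = 0.700). From 6 h to 72 h Srebf2 rose by 0.33 (SE 0.085) in untrained muscle (adjusted p = 0.0233), a call lost without untrained 6 h replicate 1 or without untrained 72 h replicate 2 or 3 (highest adjusted p 0.0869). The difference over the same interval in trained muscle was 0.20 (adjusted p = 0.182), and it passed after rescaling without mitochondrial and the 10 highest genes (0.28, adjusted p = 0.0412). In whole muscle, fewer cells of a type and less RNA per cell cannot be told apart.

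Insig1 was lowest in untrained muscle at 6 h and highest in the same state at 72 h. Its levels were 4.79, 4.44 and 5.70 TPM in sedentary muscle, while the untrained libraries read 5.03, 4.69 and 4.62 TPM (0 h), 2.66, 3.37 and 4.04 TPM (6 h) and 4.85, 7.18 and 7.15 TPM (72 h). Trained muscle read 5.03, 4.66 and 8.18 TPM (0 h), 3.75, 3.35 and 5.60 TPM (6 h) and 3.82, 5.07 and 4.37 TPM (72 h). The untrained 6 h libraries lay below all untrained 72 h and all sedentary libraries, while the trained groups overlapped each other. Insig1 rose by 0.83 (SE 0.21, log2) from 6 h to 72 h in untrained muscle, to a mean of 6.39 TPM from 3.35 TPM (adjusted p = 0.0188). That was the only member difference past the stricter rule, and its adjusted p went up to 0.0859 when untrained 6 h replicate 1 or untrained 72 h replicate 2 or 3 was left out. In trained muscle the difference over the same interval was 0.08, and the difference between the training states did not pass (trained minus untrained -0.76, SE 0.30, adjusted p = 0.329).

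Hmgcs1, the cytosolic HMG-CoA synthase, varied least. Its levels were 9.54, 9.22 and 12.4 TPM in sedentary muscle, while the untrained libraries read 12.1, 12.1 and 11.7 TPM (0 h), 9.72, 9.69 and 10.7 TPM (6 h) and 11.4, 11.5 and 11.4 TPM (72 h). The trained libraries read 12.1, 11.7 and 12.4 TPM (0 h), 9.68, 11.4 and 12.1 TPM (6 h) and 8.73, 9.08 and 8.85 TPM (72 h). All 3 trained 72 h libraries lay below every library of the other 6 groups. No comparison of Hmgcs1 passed the test. The nearest was trained 72 h against trained 6 h, at -0.29 (SE 0.090, adjusted p = 0.0535), which passed at 0.0245 after median-of-ratios scaling, at 0.0415 with the replicate number as a block and at 0.0227 with trained 6 h replicate 1 left out.

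Idi1, which interconverts the 5-carbon isoprenoid building blocks, followed the course of Srebf2 at a lower level. Its levels were 1.97, 2.17 and 2.699 TPM in sedentary muscle, while the untrained libraries read 2.88, 2.69 and 2.32 TPM (0 h), 1.58, 1.88 and 1.90 TPM (6 h) and 2.30, 2.68 and 2.91 TPM (72 h). Trained muscle read 2.88, 1.97 and 2.82 TPM (0 h), 1.72, 1.59 and 2.11 TPM (6 h) and 2.01, 2.12 and 2.01 TPM (72 h). The untrained 6 h libraries stayed below all others of the untrained state, whereas trained 0 h replicate 2 reached into the trained 6 h range. From 0 h to 6 h Idi1 fell by 0.45 (SE 0.13, log2) in untrained (adjusted p = 0.0339) and fell by 0.40 (SE 0.13) in trained muscle (adjusted p = 0.0365), and both calls were lost without the shared library (0.124 and 0.144). It rose by 0.45 from 6 h to 72 h in untrained muscle (adjusted p = 0.0407, and up to 0.143 with a library left out, lost in 5 of 6 cases).

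Fdft1, squalene synthase, took another course, with its lowest level in untrained muscle at 6 h and its highest in trained muscle at 72 h. Its levels were 15.9, 15.03 and 16.8 TPM in sedentary muscle, while the untrained libraries read 14.5, 14.6 and 15.5 TPM (0 h), 11.7, 12.72 and 11.04 TPM (6 h) and 17.3, 15.2 and 15.1 TPM (72 h). In trained muscle they were 14.5, 13.3 and 16.9 TPM (0 h), 12.95, 14.5 and 12.8 TPM (6 h) and 16.8, 20.5 and 20.3 TPM (72 h). The untrained 6 h libraries lay below all other libraries of the table, and the trained 72 h range met only the upper ends of the sedentary, untrained 72 h and trained 0 h ranges. In untrained muscle, Fdft1 fell by 0.32 (SE 0.094, log2) from 0 h to 6 h (adjusted p = 0.0370) and rose by 0.41 (SE 0.094) from 6 h to 72 h (adjusted p = 0.0111). In trained muscle it rose by 0.50 (SE 0.094) from 6 h to 72 h (adjusted p = 0.00287, and 0.0195 at most with any library left out). The untrained fall was lost without the shared library (adjusted p = 0.0877) and under both other scalings (0.130 and 0.186), and the untrained rise reached an adjusted p of 0.0608 without untrained 6 h replicate 3 or untrained 72 h replicate 1.

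The 3′ end of Fdft1 overlaps Ctsb, the gene of the lysosomal protease cathepsin B, on the opposite strand, and 1184 of the 4779 annotated exonic bases of Fdft1 are shared. The library kit used does not mark strand, so reads in that stretch cannot be assigned by strand. Ctsb ranged from 34.2 to 81.5 TPM, with group means between 51.0 and 71.4 TPM, and passed no comparison (smallest adjusted p 0.402). Its part in the Fdft1 values was not tested. The exons of the other 5 genes shared at most 10.6% of their bases with any other gene, that of Hmgcs1 with the noncoding Gm48342 on the opposite strand. Gm48342, with a mean of 1.73 TPM, passed no comparison (limma, smallest adjusted p 0.133). On the log2 scale it was -0.29 in trained against untrained muscle at 72 h and -0.27 in trained muscle at 72 h against 6 h. Its part in the Hmgcs1 values was not tested.

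Sqle, squalene epoxidase, was near the floor of the table. Its levels were 0.425, 0.450 and 0.883 TPM in sedentary muscle, while the untrained libraries read 0.501, 0.687 and 0.419 TPM (0 h), 0.276, 0.388 and 0.476 TPM (6 h) and 0.614, 0.862 and 1.12 TPM (72 h). Trained means were 0.468 TPM (0 h), 0.376 TPM (6 h) and 0.376 TPM (72 h). The untrained 72 h libraries lay above those of untrained 6 h and of trained 72 h. In the fit without the level filter, the untrained 72 h level exceeded the 6 h level by 0.62 (SE 0.17, log2, adjusted p = 0.0622), and no comparison of Sqle passed.

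Against sedentary muscle the differences were small at all 3 time points. At 6 h, 1 of 5 tested genes fell in each training state. In untrained muscle this was Fdft1, which fell by 0.41 (SE 0.094, log2) to a mean of 11.8 TPM from 15.9 TPM (adjusted p = 0.0105), where 2.79% of all tested genes fell and 0.888% fell by the stricter rule. In trained muscle it was Srebf2, which fell by 0.35 (SE 0.085) to 2.64 TPM from 3.52 TPM (adjusted p = 0.0152), where 4.66% of all genes fell and 1.44% fell by the stricter rule. The call on Fdft1 was lost without untrained 6 h replicate 3 (adjusted p = 0.0513), and that on Srebf2 without sedentary replicate 3 or trained 6 h replicate 1 (up to 0.0756). All 5 tested genes were lower on average in untrained muscle at 6 h, with a median of -0.28 against 0.01 over all tested genes, and 4 of 5 in trained muscle, with a median of -0.24 against -0.01.

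At 0 h none of the 5 passed. Srebf2 and Hmgcs1 had an unadjusted p below 0.05 in each state, as did 24.2% of all genes in untrained and 27.2% in trained muscle, while 7.46% of all genes passed in untrained and 9.37% in trained muscle (stricter rule, 3.59% and 3.74%). Srebf2 lay 0.23 (SE 0.085) and 0.20 (SE 0.085) above sedentary muscle on the log2 scale (adjusted p = 0.116 and 0.143), and Hmgcs1 lay 0.21 and 0.22 above (SE 0.090, adjusted p = 0.174 and 0.135). These differences turned on sedentary replicate 3, which had the highest level of its group for all 6 genes. Without it, the adjusted p of Srebf2 was 0.0283 and 0.0354 and that of Hmgcs1 was 0.00990 and 0.00739. Rescaling without mitochondrial and the 10 highest genes lowered the median of all genes by 0.16 (untrained) and 0.18 (trained) at 0 h, and Srebf2 then stood 0.08 and 0.04 above sedentary muscle and Hmgcs1 0.04 and 0.04 above. At 72 h none passed either, where 0.00846% of all genes passed in untrained muscle under both rules and 0.254% in trained muscle (stricter rule, 0.169%). The count at an unadjusted p below 0.05 was 0 in untrained muscle, against 5.77% of all genes, and 2 in trained muscle, against 11.7%, namely Hmgcs1 at -0.20 and Fdft1 at 0.26 (adjusted p = 0.407 and 0.278).

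**Figure D3:**
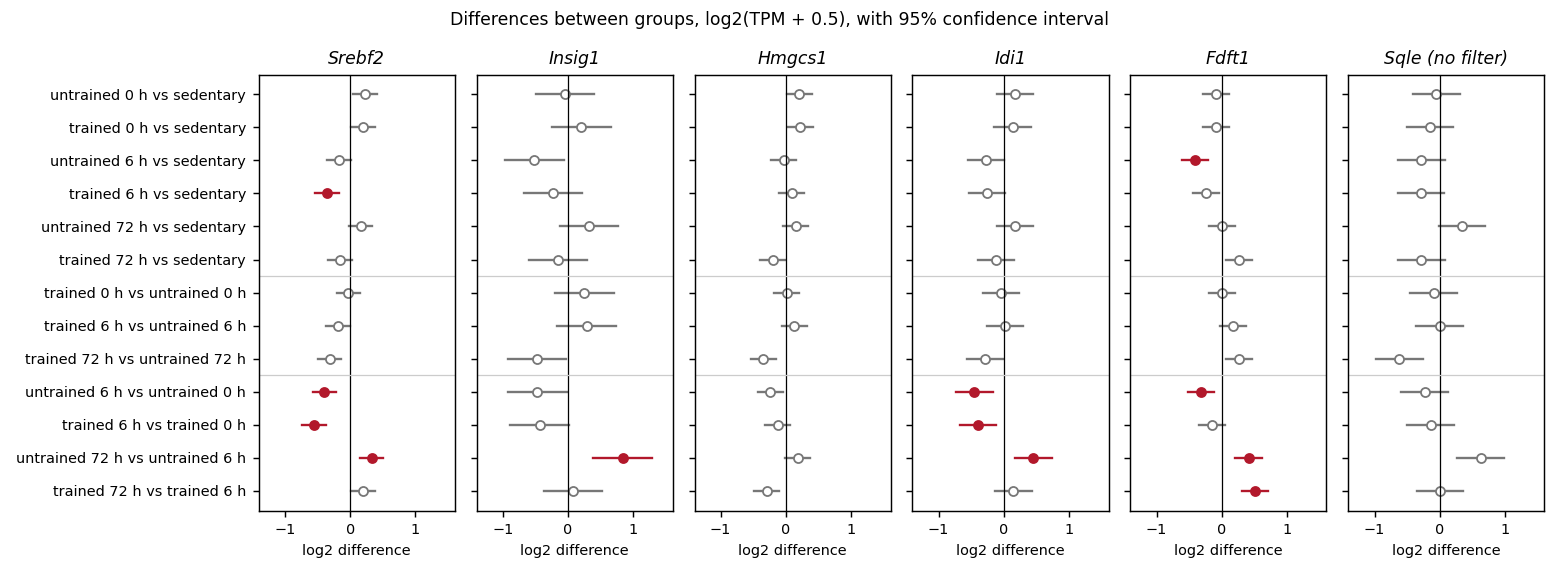
Difference between group means on the log2(TPM + 0.5) scale (points) with 95% confidence intervals (lines) for each gene and comparison. Red filled points have an adjusted p below 0.05 in limma; the panel of Sqle comes from the fit without a level filter, in which it passed no comparison.

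Within a training state, more of the genes passed. From 0 h to 6 h, 3 of 5 fell in untrained muscle (Srebf2, Idi1 and Fdft1), where 7.94% of all genes fell and 2.6% fell by the stricter rule. In trained muscle 2 of 5 fell (Srebf2 and Idi1), where 21.3% of all genes fell and 4.95% fell by the stricter rule. Without the shared library the counts were 1 and 1, both Srebf2. The medians of the 5 genes were -0.39 and -0.40, against -0.09 and -0.15 over all tested genes. Another scaling moved the median of all genes in the trained comparison by 0.14 (median of ratios) or 0.20 (without mitochondrial and the 10 highest genes), and the call on Idi1 was then lost (adjusted p = 0.126 and 0.206) while that on Srebf2 was kept.

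From 6 h to 72 h, 4 of 5 rose in untrained muscle (Srebf2, Insig1, Idi1 and Fdft1), where 3.83% of all genes rose and 1.2% rose by the stricter rule. In trained muscle 1 of 5 rose (Fdft1), where 2.77% of all genes rose and 0.956% rose by the stricter rule. The medians were 0.41 and 0.15, against 0.02 and -0.03 over all tested genes. The difference between the training states in this interval was tested gene by gene, with an interaction chosen after seeing the data, and passed for none of the 5. It was furthest from 0 relative to its error for Hmgcs1, at -0.47 (SE 0.13, unadjusted p = 0.00192, adjusted p = 0.102), with a change of -0.29 in trained and 0.18 in untrained muscle. Without the shared library this interaction had an SE of 0.135 (limma, adjusted p = 0.133).

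The direct comparison of trained with untrained muscle passed for none of the 5 genes at any time point. At 72 h, 0.415% of all genes passed and 0.245% passed the stricter rule. All 5 had an unadjusted p below 0.05, as did 15% of all genes, and 4 of the 5 were lower in trained muscle. Under either other scaling 3 of 5 had one (Srebf2, Hmgcs1 and Fdft1), against 11% of all genes after median-of-ratios scaling and 10.9% after rescaling without mitochondrial and the 10 highest genes. On the log2 scale, trained minus untrained was -0.31 (SE 0.085, adjusted p = 0.116) for Srebf2, -0.35 (SE 0.090, adjusted p = 0.109) for Hmgcs1, -0.29 (SE 0.13, adjusted p = 0.302) for Idi1 and -0.47 (SE 0.21, adjusted p = 0.302) for Insig1. Fdft1 stood the other way, at 0.27 (SE 0.094, adjusted p = 0.206). For Sqle the difference was -0.62 (SE 0.17, adjusted p = 0.218, fit without level filter). The libraries of the 2 groups did not overlap for Srebf2, Hmgcs1, Idi1 and Sqle, and overlapped for Insig1 and Fdft1. The share of all genes without overlap is not given here, so this describes the libraries alone. The median of the 5 tested genes was -0.31, against -0.08 over all tested genes.

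At 6 h the difference between trained and untrained muscle was -0.18 for Srebf2 and 0.17 for Fdft1 on the log2 scale, and none of the 5 passed (1 at an unadjusted p below 0.05, against 18.3% of all genes), while 4.56% of all genes passed and 2.01% passed the stricter rule. At 0 h none passed, as for 0% of all genes under both rules, with 0 members at an unadjusted p below 0.05, against 1.21% of all genes, and a library that both groups share.

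Markers of other cells in the muscle varied with some of these groups. The 6 Schwann cell markers, all above 0 in every group, summed to 12.6 to 22.8 TPM in sedentary muscle. In untrained muscle their sum was 9.44 to 18.1 TPM (0 h), a range that holds all 3 values of 6 h (10.7 to 11.2 TPM), and 15.2 to 18.0 TPM (72 h). In trained muscle the sum was 13.996 to 15.8 TPM (0 h), 8.01 to 18.2 TPM (6 h) and 8.79 to 16.8 TPM (72 h). Schwann cells are known for a high rate of cholesterol synthesis, and the part of their RNA in the 6 h and 72 h values was not tested. The 6 adipocyte markers summed to 25.4 to 42.3 TPM in sedentary muscle, then 25.04 to 64.5 TPM (0 h), 24.5 to 108 TPM (6 h) and 34.1 to 135 TPM (72 h) in untrained muscle and 32.8 to 105 TPM (0 h), 35.6 to 92.6 TPM (6 h) and 59.4 to 60.9 TPM (72 h) in trained muscle. The 6 macrophage markers summed to 17.2 to 19.9 TPM in sedentary muscle, then 21.98 to 25.9 TPM (0 h), 19.3 to 40.6 TPM (6 h) and 27.7 to 28.4 TPM (72 h) in untrained muscle. In trained muscle they summed to 21.98 to 23.9 TPM (0 h), 14.7 to 19.97 TPM (6 h) and 19.1 to 22.7 TPM (72 h), without overlap of the 2 states at 72 h. No marker of these lists was at 0 throughout a group, and their part in the results was not tested.

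Across the 20 distinct libraries, Srebf2 varied with 4 of the other 5 genes. Pearson's r on log2(TPM + 0.5) was 0.858 for Idi1 (permutation p = 1e-05, the smallest that the 100000 permutations can give, adjusted p = 5e-05 over 5 relations), with a Spearman's rho of 0.812 (permutation, adjusted p = 0.00015). It was 0.672 for Sqle (rho 0.671), 0.641 for Insig1 (rho 0.541) and 0.615 for Hmgcs1 (rho 0.606), with adjusted permutation p-values of 0.00248, 0.00388 and 0.0061 for r and 0.0039, 0.0185 and 0.00958 for rho. For Fdft1 r was 0.183 and rho 0.186 (adjusted permutation p = 0.438 and 0.427). Leaving out the 2 libraries farthest from the median of Srebf2, trained 6 h replicates 1 and 2, gave r of 0.822, 0.641, 0.583, 0.733 and 0.0792 for Idi1, Sqle, Insig1, Hmgcs1 and Fdft1. After subtraction of group means, over 19 libraries, r was 0.691, 0.759, 0.532, 0.742 and -0.175 in the same order. With TPM rescaled without mitochondrial and the 10 highest genes, the relation with Hmgcs1 was no longer past the threshold (r = 0.347, adjusted permutation p = 0.168). The share of all genes that varied as closely with Srebf2 is not given here. The permutations exchanged libraries across the 7 groups, so differences between groups enter these p-values and the libraries are not independent units. Libraries also share scaling and cell composition, so these values describe the libraries.

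**Figure D4:**
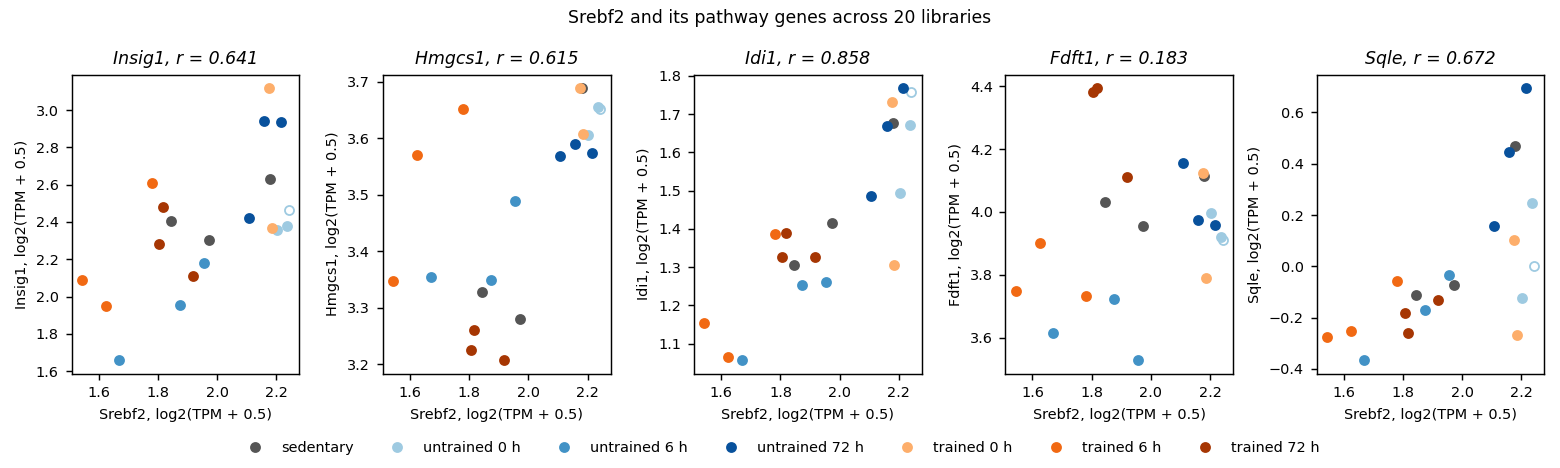
Srebf2 against each of the other 5 genes in 20 distinct libraries, both axes on the log2(TPM + 0.5) scale, coloured by group; the open circle is the library present in both 0 h groups. The points rise together for Idi1 (r = 0.858) and form no common line for Fdft1 (r = 0.183).

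The gene most like the mean standardised level of the 6, by the correlation of its log2(TPM + 0.5) over 20 libraries, was Grtp1 at r = 0.925. Rgma (0.875), Vasp (0.869), Polh (0.864) and Fam78a (0.861) came next among the 11814 other genes tested. The members themselves were not equally near that mean, with r of 0.960 for Idi1, 0.892 for Insig1 and 0.858 for Srebf2. For Hmgcs1 it was 0.660 and for Fdft1 0.410. Each member is a part of that mean, which raises its r, so these values cannot be set beside those of other genes. Of the listed lipid genes, Fdps, farnesyl diphosphate synthase, came highest at rank 23 (r = 0.840), then Srebf1 at rank 37 (0.825) and Nsdhl, a sterol dehydrogenase, at rank 60 (0.807). The 13 tested enzymes of cholesterol synthesis outside the 6, Fdps and Nsdhl included, had a median rank of 2771. Fdps and Nsdhl were the 2 of them among the first 100 genes.

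The rest of the pathway was read from 5 lists. Of 16 other cholesterol synthesis enzymes 13 were tested, and 1 of them, Hsd17b7, a ketoreductase of the sterol steps, differed from sedentary muscle by the stricter rule. It rose by 0.65 (SE 0.13, log2) in untrained and by 0.84 (SE 0.13) in trained muscle at 0 h, to means of 2.17 and 2.54 TPM from 1.204 TPM (adjusted p = 0.00527 and 0.000582, and 0.0407 and 0.00312 without the shared library). By the stricter rule, 2.97% of all genes rose at 0 h in untrained and 3.39% in trained muscle. Hsd17b7 fell by 0.51 from 0 h to 6 h in trained muscle (adjusted p = 0.0117). In that comparison Pmvk, phosphomevalonate kinase, and Fdps fell as well, by 0.43 and by 0.38 (adjusted p = 0.0115 and 0.0123), and Nsdhl rose by 0.35 in untrained muscle from 6 h to 72 h (adjusted p = 0.0440). These 3 genes and those named below without the stricter rule were singled out after their values were seen. The medians of the 13 at 6 h against sedentary muscle were -0.06 in untrained and -0.14 in trained muscle, and 0 passed (2 at an unadjusted p below 0.05 in each, limma, against 21.8% and 24.1% of all genes).

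Among 5 genes of SREBP processing and its relatives, all tested, 2 fell in untrained muscle at 6 h against sedentary muscle and 1 in trained muscle. Of all genes, 2.79% fell in untrained and 4.66% in trained muscle (stricter rule, 0.888% and 1.44%). Srebf1, which encodes the SREBP1 factors of fatty acid synthesis, fell by 0.68 (SE 0.18) to 11.2 TPM from 17.9 TPM in untrained muscle at 6 h (adjusted p = 0.0217). It fell by 0.79 from 0 h to 6 h (adjusted p = 0.00844) and rose by 0.97 from 6 h to 72 h (adjusted p = 0.00235), to 21.98 TPM. Insig2, the relative of Insig1, fell by 0.42 (SE 0.11) in untrained and by 0.41 (SE 0.11) in trained muscle at 6 h against sedentary muscle (adjusted p = 0.0216 and 0.0220).

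Of 5 genes of the isoprenoid branch, all tested, Pdss1, a subunit of the enzyme that makes the side chain of ubiquinone, went against the members at 6 h. It rose by 0.60 (SE 0.070) to 4.86 TPM from 3.03 TPM in trained muscle (adjusted p = 8.2e-05) and by 0.24 (SE 0.070) in untrained muscle (adjusted p = 0.0407), and its 6 h level in trained muscle exceeded that in untrained muscle by 0.36 (SE 0.070, adjusted p = 0.00659). Pdss2, its partner subunit, fell by 0.20 (SE 0.062) in untrained muscle at 6 h (adjusted p = 0.0487). Of 8 fatty acid synthesis genes 7 were tested, and Acss2, which makes acetyl-CoA from acetate, fell by 0.56 (SE 0.14) in untrained muscle at 6 h (adjusted p = 0.0217). From 6 h to 72 h in untrained muscle Acss2 rose by 0.67 (adjusted p = 0.00732) and Scd2, a desaturase, by 1.078 (adjusted p = 0.0235). Of 8 genes of the LXR and sterol export list 5 were tested, and none passed in any comparison.

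**Figure D5:**
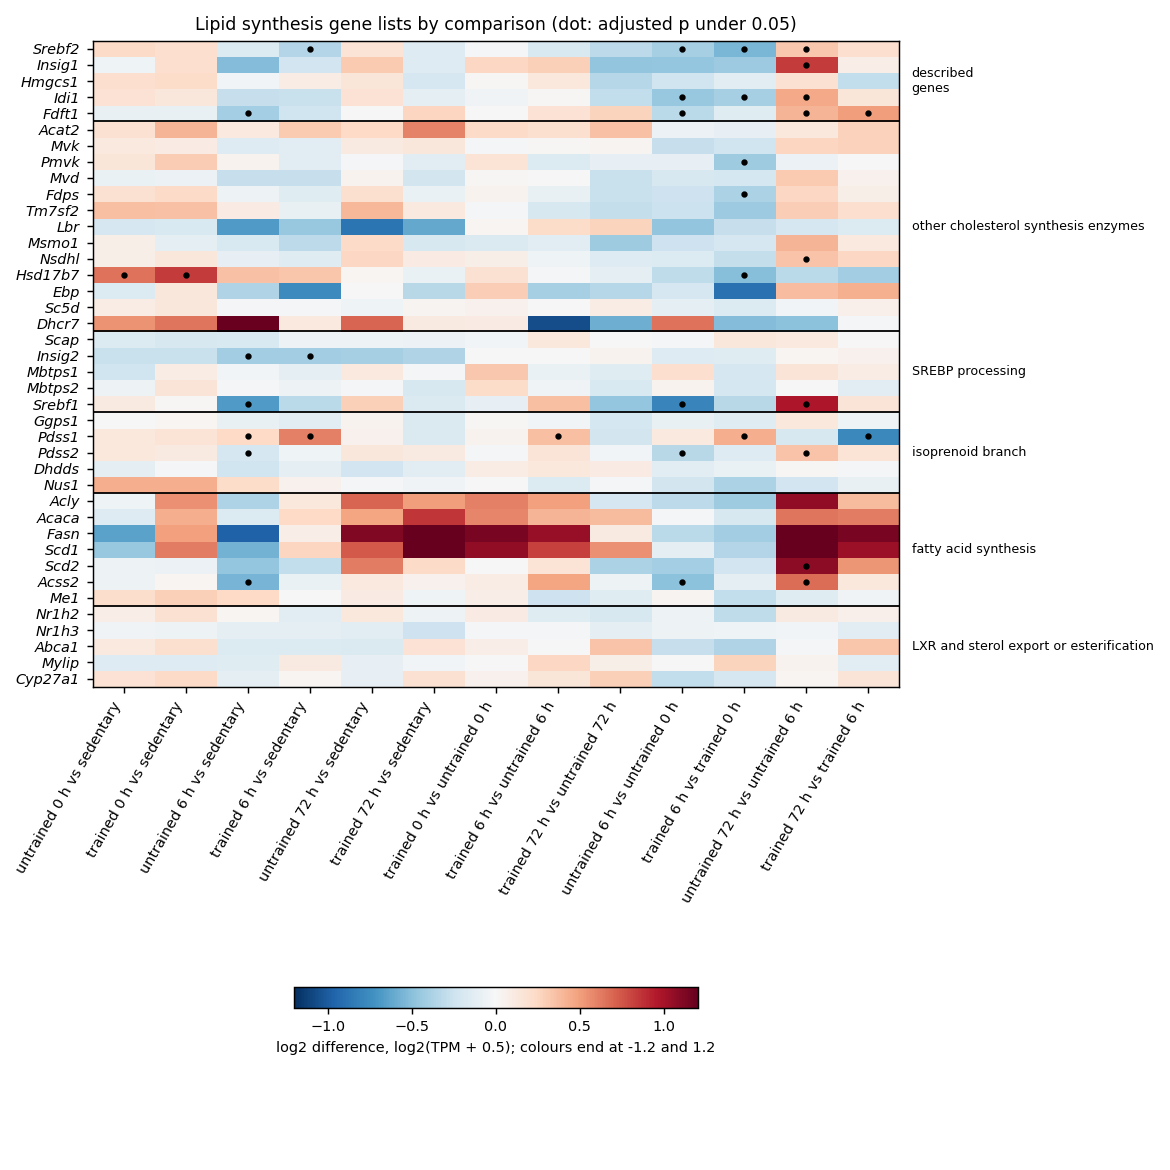
Log2 differences (colour) of the 5 tested genes described here and of the tested genes of 5 lipid synthesis lists (rows) in 13 comparisons (columns), with dots at an adjusted p below 0.05 in limma. Dots gather in the comparison of untrained 72 h with untrained 6 h for 4 of the 5 genes, and the 5 genes of the LXR list carry none.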

How the data were processed

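RNA was sequenced from bulk quadriceps, 21 libraries in 7 groups of 3. Per the labels and the study's methods, libraries were made with a TruSeq RNA Library Prep Kit v2, reads were aligned to GRCm39 with STAR (2.7.9 in the submitters' processing notes), and the authors deposited TPM values per gene made with Salmon 1.5.0. TPM were used as deposited, and 0 columns were left unassigned. Depth is unknown, so the number of libraries limits the precision.

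Values were transformed to log2(TPM + 0.5), and the 11819 genes averaging 1 TPM or more were fitted with a mean per group in limma 3.58.1 (R 4.3.3, variance trend, 14 residual degrees of freedom), with 13 comparisons and Benjamini-Hochberg adjustment within each. A fold change is on that scale and understates the change of low genes such as Sqle. The stricter rule adds a fold of 1.5. The procedure was tested on simulated data. Correlations used 100000 permutations (two-sided, scipy). The 6 genes were given by symbol, and gene lists and tests were chosen with earlier results of these data known. Named are all 6 genes, list genes past the stricter rule against sedentary or untrained muscle, and the 5 genes most like the mean of the 6. The marker lists of endothelial, fibro-adipogenic and satellite cells are given in the closing section. Alternatives were pseudocounts of 0.1 and 1, no level filter, a floor of 5 TPM on the mean, scaling by median of ratios, TPM rescaled without mitochondrial-genome and the 10 highest genes, only the groups compared, no variance trend, no fold threshold, a replicate block, and each library left out. Leaving out the shared library and the interaction of training with time were also fitted, the interaction being added after seeing the data. Promoters were read from GRCm39 with the GENCODE annotation.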

Additional observations from a re-analysis of the deposited data

Results flagged for a closer look

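At 72 h, 4 of the 6 genes lay on opposite sides of the sedentary mean in trained and untrained muscle, with every trained library below it and every untrained library above it. Trained minus untrained, the change from sedentary muscle was -0.31 for Srebf2, -0.35 for Hmgcs1, -0.62 for Sqle and -0.29 for Idi1 on the log2 scale. The direct limma comparison of the 2 groups did not pass the threshold for any of them (adjusted p = 0.116, 0.109, 0.218 and 0.302, that of Sqle from the fit without a level filter). The 2 groups share the sedentary libraries as reference, so these differences are the same as those of the direct comparison. The share of all genes that lay on opposite sides in this way is not given here. In the direct comparison, 0.415% of all tested genes differed at an adjusted p below 0.05.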

How the results depend on the processing

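The count of the 6 genes past both thresholds was 0 in 12 comparisons and 1, Insig1, in untrained 72 h against untrained 6 h. That count was 0 with only the groups compared in the fit (limma, adjusted p = 0.127 for Insig1). It was also 0 with a mean of at least 5 TPM, a floor that leaves Insig1, at 4.87 TPM, untested. Without the fold threshold the counts were 1 in untrained and 1 in trained muscle at 6 h against sedentary, 3 (untrained) and 2 (trained) for 6 h against 0 h, and 4 (untrained) and 1 (trained) for 72 h against 6 h. A pseudocount of 0.1 gave 1 for trained 6 h against 0 h. With a library left out, the count ranged from 0 to 1 for trained 6 h against 0 h, untrained 72 h against 6 h and trained 72 h against 6 h. Libraries with the same number deviated together little (2 of 52 pairs at a correlation over 0.1, median 0.0172). Those with different numbers did so about as little (4 of 102 pairs, median 0.000529). Such correlations cannot tell whether a number stands for a shared batch or day, which the labels do not state. With the replicate number as a block, the SE went from 0.21 to 0.17 for Insig1 and from 0.094 to 0.098 for Fdft1. The replicate block left every count under both thresholds as it was, with 1 in untrained 72 h against 6 h. Without the fold threshold it lost Fdft1 in untrained 6 h against 0 h (adjusted p = 0.052) and gained Hmgcs1 in trained 72 h against 6 h (0.0415). The fit of only the groups compared has 4 residual degrees of freedom before moderation, and there Srebf2 in trained 6 h against 0 h (adjusted p = 0.0233) and Hmgcs1 in trained against untrained 72 h (0.0456) passed, while Fdft1 (0.0896) and Srebf2 (0.169) at 6 h against sedentary did not, nor did any other difference of the 5 tested genes.

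Directions near 0 turned under rescaling without mitochondrial and the 10 highest genes for Idi1 in trained 0 h against sedentary (-0.0295), Hmgcs1 in trained against untrained 0 h (-0.0057), and Hmgcs1 (0.0778) and Fdft1 (0.0587) in trained 6 h against 0 h. Under median-of-ratios scaling the last 3 read -0.0216, 0.0263 and 0.0073. With a library left out, log2 differences that changed sign ranged from -0.12 to 0.0454 for Insig1 in untrained and from -0.0299 to 0.35 in trained 0 h against sedentary, from -0.11 to 0.0929 for Hmgcs1 in untrained 6 h and from -0.0665 to 0.0357 for Fdft1 in untrained 72 h against sedentary. For trained against untrained muscle at 0 h they ranged from -0.0082 to 0.0325 for Hmgcs1, from -0.12 to 0.10 for Idi1 and from -0.0920 to 0.0744 for Fdft1, at 6 h from -0.0810 to 0.0798 for Idi1, and for trained 72 h against 6 h from -0.0573 to 0.27 for Insig1. The correlation of Srebf2 with Hmgcs1 was 0.347 after rescaling. The cause of these shifts was not tested. Depth is unknown, and Sqle, at 0.512 TPM, could be tested only without the level filter.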

Other observations

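Other marker lists stood as follows in TPM summed over a list. Endothelial markers (5 genes) had group means between 40.9 (untrained 6 h) and 49.4 (untrained 72 h), fibro-adipogenic markers (5 genes) between 233 (untrained 0 h) and 286 (trained 72 h), and satellite cell markers (4 genes) between 1.36 (untrained 0 h) and 1.79 (sedentary). The 5 annotated pseudogenes of Idi1 were listed at 0 in every library, apart from a value of 0.0262 TPM for Idi1-ps5 in untrained 72 h replicate 2, and Idi2, the relative of Idi1, had a mean of 0.00391 TPM, so little signal was assigned to close copies of Idi1. Among the members, the pair with the highest correlation over 20 libraries was Srebf2 and Idi1, followed by Insig1 and Idi1 (r = 0.839) and Sqle and Idi1 (r = 0.812), and the lowest was Hmgcs1 and Fdft1 (r = -0.202).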
